A study of Homo sapiens with 12 samples.

Results

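The 342 genes described here lie on human chromosome 5 and gave a measurable signal in MDA-MB-231 cells that carried a short hairpin RNA (shRNA) against HDAC5 or against LSD1. They were selected on position and mean signal, and the chromosome itself was chosen with earlier results of these data known. A gene had to lie on chromosome 5 in the GRCh38.p14 annotation, to have a probe set with a single gene symbol, and to have a mean log2 signal over all 12 arrays above 5.98, the 40th percentile of all non-control probe sets. Of 11963 genes with such a probe set, 507 were on chromosome 5, of which 342 passed the level threshold and 165 did not. Of the members, 53 lay on the short arm, from SDHA to MRPS30, and 289 on the long arm, from PARP8 to TRIM52. The changes with either shRNA were not part of the rule. At the threshold, PCDH12 (mean 5.992) and CAMK4 (5.995) were just inside, and OCLN and DOK3 (both 5.973) were just outside.

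MDA-MB-231 is an established line of triple-negative, mesenchymal breast cancer cells. The 12 samples form 4 groups of 3 arrays, all of lentivirally transduced cells, and each shRNA has scramble arrays of its own: HDAC5 shRNA (replicates 1, 2 and 3) with a scramble set numbered 1, 2 and 3 that carries no experiment tag and was assigned to it, and LSD1 shRNA (1, 2 and 3) with a scramble set lettered A, B and C. The study asked how gene expression differs when either enzyme is depleted. The hairpin sequences, the number of hairpins per target and any selection of transduced cells are not stated in the labels used here. The replicates are called biological, but the labels do not say whether they differ by culture, transduction or day, so the p-values measure the spread between these samples.

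HDAC5 is a class IIa histone deacetylase that works largely as a corepressor with transcription factors such as MEF2. LSD1, encoded by KDM1A, removes methyl groups from histone H3 lysines and acts at enhancers and promoters within the CoREST complex. Chromosome 5 carries genes of mitosis and its checkpoints (CCNB1, KIF20A, CDC25C, PTTG1), genes of chaperones and chromatin proteins, the protocadherin clusters and genes of the extracellular matrix such as SPARC and LOX. In myeloid disease its long arm is a well-known site of deletion. Genes were followed in the order in which they lie along the chromosome.

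The labels were first set against the targeted genes. HDAC5 had a mean log2 signal of 7.40 ± 0.17 (SD, n = 3) in scramble and 6.29 ± 0.18 with HDAC5 shRNA, and KDM1A had 9.72 ± 0.09 in scramble and 6.63 ± 0.17 with LSD1 shRNA. The mesenchymal marker VIM lay between 13.5 and 13.8 on all arrays and the leukocyte marker PTPRC between 3.42 and 3.62. Not every epithelial or leukocyte marker was low. Over all arrays the mean log2 signal was 10.39 for KRT19, 8.68 for GATA3, 8.03 for EPCAM and 6.23 for CD3E. The same mean was 2.80 for PGR, 5.99 for ESR1 and 6.33 for FOXA1. CDH1, an epithelial cadherin, was at 4.18 ± 0.23 in the LSD1 experiment's scramble and at 6.40 ± 0.28 with LSD1 shRNA. Arrays of a group correlated at 0.991 or more over all probe sets, and no pair was identical. The difference between the 3′ and 5′ actin control probe sets, a sign of RNA integrity, was 0.90 ± 0.06 in scramble and 0.68 ± 0.08 with HDAC5 shRNA, and 1.30 ± 0.06 in scramble and 1.43 ± 0.12 with LSD1 shRNA. Its part in the results was not tested. The scramble sets themselves differed: the signal in the LSD1 experiment was higher by a median of 0.38 over all genes above the threshold and by 0.41 over the members, and in these data the experiment and the cells' baseline cannot be told apart.

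Promoters are shown for 5 members on which the results turn. BRD8 and KIF20A start close together on opposite strands, LMNB1 and CDC23 changed in opposite directions with the shRNAs, and CYFIP2 had the largest difference between them. Each sequence is the RefSeq window from 250 bases before the start site to 50 after it (GRCh38.p14), and capitals mark matches to the 8-base forms of the E2F motif that were searched on both strands.
LMNB1, chr5:126776373-126776672, plus strand: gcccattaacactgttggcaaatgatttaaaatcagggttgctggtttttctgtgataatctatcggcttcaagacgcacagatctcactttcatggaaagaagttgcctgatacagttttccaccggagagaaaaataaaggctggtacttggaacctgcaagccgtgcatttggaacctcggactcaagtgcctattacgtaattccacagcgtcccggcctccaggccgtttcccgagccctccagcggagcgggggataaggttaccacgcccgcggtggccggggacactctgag
BRD8, chr5:138178581-138178880, minus strand: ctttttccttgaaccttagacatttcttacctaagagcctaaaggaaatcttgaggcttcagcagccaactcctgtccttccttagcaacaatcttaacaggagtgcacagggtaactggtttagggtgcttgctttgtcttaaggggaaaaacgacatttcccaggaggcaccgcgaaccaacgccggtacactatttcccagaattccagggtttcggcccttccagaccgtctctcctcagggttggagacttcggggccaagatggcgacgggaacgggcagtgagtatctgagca
KIF20A, chr5:138178862-138179161, plus strand: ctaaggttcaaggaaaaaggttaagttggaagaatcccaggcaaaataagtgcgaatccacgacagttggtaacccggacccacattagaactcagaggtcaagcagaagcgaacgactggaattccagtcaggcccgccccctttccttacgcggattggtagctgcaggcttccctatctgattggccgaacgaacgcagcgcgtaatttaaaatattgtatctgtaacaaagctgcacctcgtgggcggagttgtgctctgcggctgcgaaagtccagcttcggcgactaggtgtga
CDC23, chr5:138213274-138213573, minus strand: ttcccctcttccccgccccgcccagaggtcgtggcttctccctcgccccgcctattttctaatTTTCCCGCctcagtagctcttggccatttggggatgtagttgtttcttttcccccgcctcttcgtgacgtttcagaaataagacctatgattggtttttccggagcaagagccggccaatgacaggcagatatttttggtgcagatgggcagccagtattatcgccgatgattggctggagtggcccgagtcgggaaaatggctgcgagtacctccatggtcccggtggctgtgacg
CYFIP2, chr5:157265873-157266172, plus strand: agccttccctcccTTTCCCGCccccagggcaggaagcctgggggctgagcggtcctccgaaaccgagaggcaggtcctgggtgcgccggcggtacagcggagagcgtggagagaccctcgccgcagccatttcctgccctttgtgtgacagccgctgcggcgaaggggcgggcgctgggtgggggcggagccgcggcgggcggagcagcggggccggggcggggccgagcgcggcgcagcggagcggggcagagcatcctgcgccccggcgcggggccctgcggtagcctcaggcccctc
E2F factors bind promoters of cell cycle genes, and the forms searched were TTTGGCGC, TTTCCCGC, TTTCGCGC and TTTGCCGC. CDC23, a subunit of the anaphase-promoting complex, held a match 187 bases before its start site, and CYFIP2, a subunit of the WAVE actin regulator, held one 237 bases before. The windows of LMNB1, BRD8 and KIF20A held none of these letters.

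A promoter window was found for 315 members, and 17 of them (5.40%) held a match, against 908 of 27305 windows (3.33%) of all genes outside chromosome 8. Among 10 cell division members that rose with HDAC5 shRNA, 1 window held a match. The composite site of the stress factor ATF4, searched as TGATGNAA on both strands, was in 11 member windows (3.49%) and in 1003 of all windows (3.67%). The GC content was 64.4% in the members' windows and 57.2% in all windows.

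With LSD1 shRNA, the members' median was below that of scramble, most of all on one stretch of the chromosome. The median change of the 342 members was -0.084 on the log2 scale, against -0.0077 over all 7996 genes above the threshold, and 219 members (64.0%) were lower than in scramble, against 51.4% of all genes. On the short arm the median was -0.023 and 28 of 53 members were lower. On the long arm it was -0.099 and 191 of 289 were lower. The long arm was itself uneven. From PARP8 to SEPTIN8, called the inner long arm here, 120 members had a median of 0.014 and 57 were lower. From UQCRQ to TRIM52, the outer long arm, 169 members had a median of -0.176 and 134 (79.3%) were lower. The border between SEPTIN8 and UQCRQ was chosen after the values were seen, so the split is a description and carries no test. RNA of bulk cells was measured, so fewer cells of a kind and less RNA per cell cannot be told apart.

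The shift was present on each LSD1 shRNA array. Set against the scramble mean, the outer long arm had array medians of -0.172, -0.174 and -0.135 with LSD1 shRNA and of -0.012, 0.000 and 0.007 in scramble A, B and C. The 3 shRNA arrays thus lay below all scramble arrays, with a spread (SD 0.022) well under the distance between the groups. The inner long arm had array medians of -0.002, 0.114 and -0.050 with LSD1 shRNA, which lay on both sides of 0. Replicate 2 was the highest there and did not stand apart on the outer long arm.

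**Figure D1:**
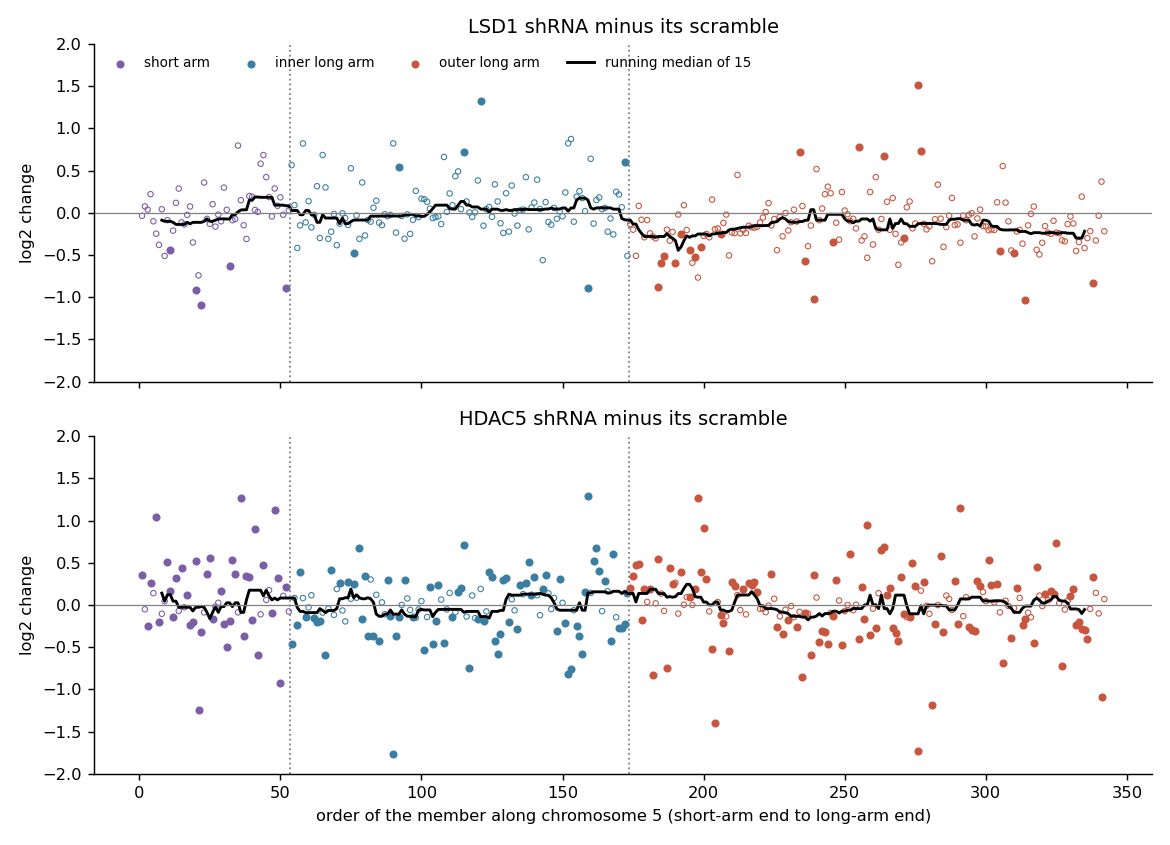
Log2 change of each of the 342 members, in their order along chromosome 5, with LSD1 shRNA (top) and HDAC5 shRNA (bottom), each against its own scramble mean. Filled points passed limma at an adjusted p under 0.05, open points did not, dotted lines mark the centromere and the SEPTIN8-UQCRQ border, and the black line is the running median of 15 members. With LSD1 shRNA the line drops at the border and stays at or below 0 over most of the outer long arm. With HDAC5 shRNA it stays near 0.

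Taken in runs of 20 neighbouring members (13 in the last of the short arm, 29 in the last of the long arm), the medians dropped from one run to the next at SEPTIN8. The 6 inner runs had LSD1 medians between -0.042 and 0.063. The run from UQCRQ to TGFBI had a median of -0.245, with 18 of 20 members lower, and the next, from SMAD5 to TMCO6, had -0.246, again with 18 of 20 lower. Between them these runs hold the heat shock protein genes HSPA4 and HSPA9 and the early growth response gene EGR1. The shift then became smaller. NDUFA2 to SPRY4, which spans the protocadherin clusters, had a median of -0.132, and FGF1 to RPS14 had -0.044, with 11 of 20 members lower. It was larger again towards the end: NDST1 to CNOT8 had -0.192, MRPL22 to NPM1 -0.128, FBXW11 to RGS14 -0.178, and the last run, F12 to TRIM52, -0.235, with 26 of 29 members lower. All 8 outer runs were below 0. On the other chromosomes, 373 runs of 20 members had a 10th percentile of -0.188 and a 90th of 0.200. Of them, 16 (4.29%) were at or below the lowest of chromosome 5. That run was picked as the lowest of 17, so the share is a description and no measure of rarity.

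**Figure D2:**
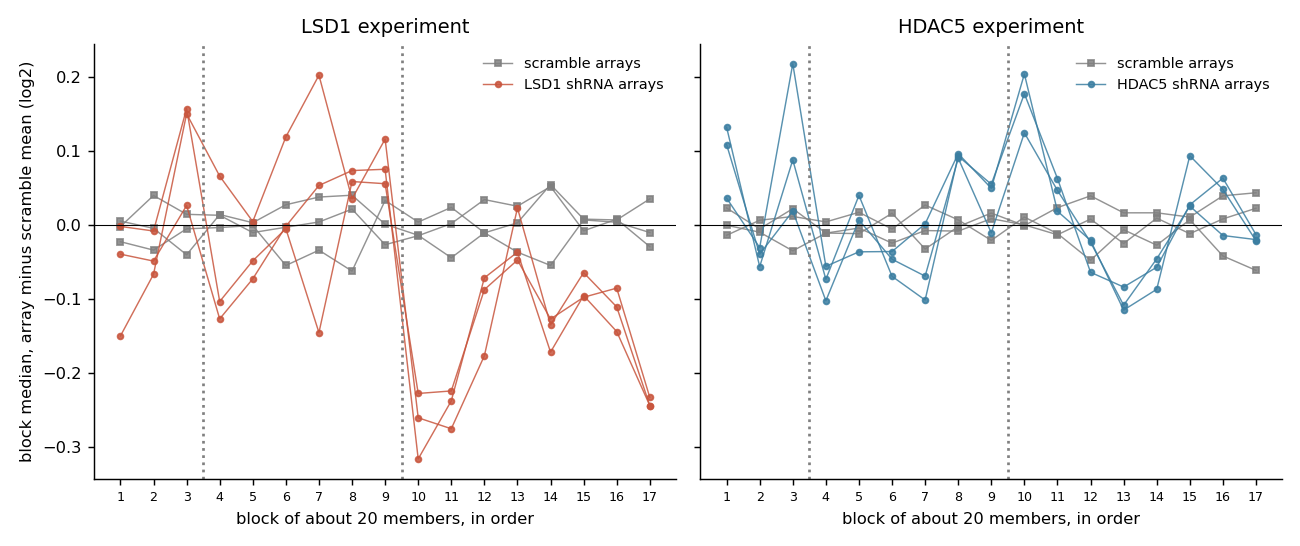
Median, per array, of the log2 difference from the scramble mean over each of 17 runs of neighbouring members, in order along chromosome 5, for the LSD1 (left) and HDAC5 (right) experiments. Each line is 1 array, squares are scramble, circles are shRNA, and dotted lines mark the centromere and the SEPTIN8-UQCRQ border. The 3 LSD1 shRNA arrays drop together at the border, to between -0.228 and -0.316, and meet again in the last run.

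The probe sets not chosen for a gene gave a second reading of the same RNA. On the outer long arm, 101 further probe sets of 63 member genes had a signal above the threshold, and their median change with LSD1 shRNA was -0.204, with 82 (81.2%) lower. The inner long arm had 63 such probe sets with a median of -0.019 and 35 lower, and the short arm 33 with -0.125 and 24 lower. For HSPA4, its chosen probe set had a change of 0.08 and the one of its others that does not match related genes had -0.69. With no level filter the outer long arm's median was -0.095 over 252 genes. The shift was not seen in its 83 genes below the level threshold, which had a median of 0.0019 with 41 lower. Among its members, the 57 of lowest mean signal had a median of -0.11, with 38 lower. The 51 of middle signal had -0.21, with 42 lower, and the 61 of highest signal -0.19, with 54 lower. The part of signal level in the shift was not tested.

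Chromosome 5 was not the only chromosome with a shift. Of 23 chromosomes compared, chromosome 4 had the lowest LSD1 median, -0.320, followed by chromosome 10 with -0.197, chromosome 13 with -0.144 and then chromosome 5. The outer long arm, at -0.176, was thus between chromosomes 10 and 13. With HDAC5 shRNA the chromosome 5 median was -0.0058 against -0.010 over all genes, and chromosomes 4, 10 and 13 had -0.0073, -0.031 and -0.012. The correlation of neighbouring members' changes along chromosome 5 was 0.19 with LSD1 shRNA and 0.078 with HDAC5 shRNA over 341 pairs. These pairs share arrays, and the values are descriptions.

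**Figure D3:**
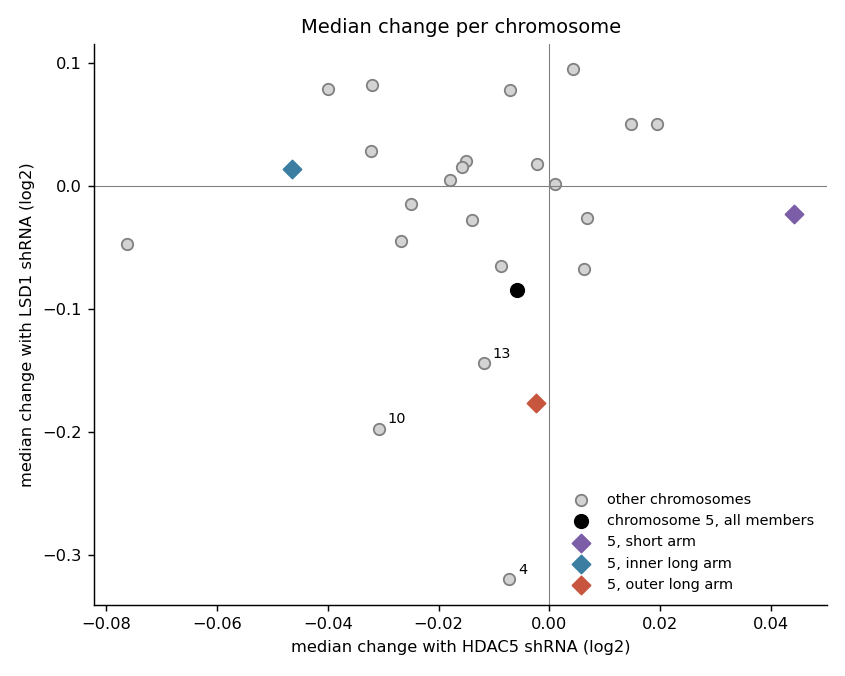
Median log2 change per chromosome with HDAC5 shRNA (x axis) and LSD1 shRNA (y axis). Circles are chromosomes and diamonds the stretches of chromosome 5. The outer long arm is at -0.176 on the y axis, below the other stretches, and chromosomes 4, 10 and 13 are the lowest of the others.

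Single members passed the test with LSD1 shRNA in both directions. In limma with Benjamini-Hochberg adjustment over all 11963 genes, 24 members fell (7.02%; 2.85% of the genes above the threshold and 2% of all genes) and 9 rose (2.63%; 3.23% and 2.93%). Of the 24, 17 were on the outer long arm (10.1% of its members), 2 on the inner long arm (1.67%) and 5 on the short arm (9.43%). Of the 9 that rose, 5 were on the outer and 4 on the inner long arm. These counts hung on single arrays: 14 members were called without scramble A, 2 without scramble B, 1 without scramble C, 5 without LSD1 shRNA 1, 39 without LSD1 shRNA 2 and 9 without LSD1 shRNA 3, against 33 in all. With quantile normalization over all arrays 14 rose and 21 fell. Without the _x_at and _s_at probe sets 20 of the 220 members left were called, and a joint fit of 12 arrays called 102. The order of single arrays gave the same picture without a threshold: 67 outer members (39.6%) had all 3 LSD1 shRNA arrays below all 3 scramble arrays, against 17.1% of the genes above the threshold, and 11 (6.51%) had all 3 above, against 17%. On the inner long arm 14 members were below and 23 above.

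Chromatin proteins and transcription factors were the list with the most falls. Of its 24 members, 7 fell with LSD1 shRNA in limma (29.2%) and 0 rose, against 2.85% and 3.23% of the genes above the threshold. The list also holds genes of other roles, such as CNOT6, which is among the 7, and APC. At an unadjusted p under 0.05, 10 fell and 1 rose. The list's median was -0.20 against -0.0077 over all genes. All 7 that fell lie on the outer long arm, where 79.3% of all members were lower and 10.1% fell in limma. The part of position in the list's values was not tested. JADE2, a scaffold of the HBO1 histone acetyltransferase complex, had signals of 10.60, 10.65 and 10.64 in scramble and 9.89, 9.54 and 9.83 with LSD1 shRNA. The groups did not overlap, and the change was -0.88 (SE 0.11, limma adjusted p = 0.011); the mean of its probe sets gave -0.57, which did not pass. CNOT6, a catalytic subunit of the CCR4-NOT deadenylase, went from 9.73, 9.86 and 9.83 to 9.05, 8.73 and 9.14, a change of -0.83 (SE 0.13, limma adjusted p = 0.019). MACROH2A1, a histone variant of silenced chromatin, was tightly spread in scramble (12.66, 12.67 and 12.66) and lower on each shRNA array (12.45, 12.34 and 12.46), so that a change of only -0.25 passed (SE 0.05, limma adjusted p = 0.042). The glucocorticoid receptor gene NR3C1 fell by 0.57 (SE 0.10), and its 3 further probe sets, all above the threshold, had changes of -0.68, -0.67 and -0.72. The homeobox factor PITX1 (-0.59) and the H3K36 methyltransferase NSD1 (-0.48) also fell. BRD8, a bromodomain subunit of the NuA4 acetyltransferase complex, fell by 0.52, but its only other probe set, at a low signal, had a change of 0.31. HDAC3, a deacetylase gene on the same stretch, was at -0.07 and did not pass.

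Other outer members that fell lay outside the chromatin list. F12, coagulation factor XII, had 8.87, 8.86 and 8.72 in scramble and 7.82, 7.81 and 7.70 with LSD1 shRNA, a change of -1.04 (SE 0.09, limma adjusted p = 0.0029). DPYSL3, a cytoskeletal protein of the collapsin response family, went from 7.16, 7.31 and 7.43 to 6.04, 6.30 and 6.49, a change of -1.02 (SE 0.13, limma adjusted p = 0.012). For both genes every shRNA array lay more than 0.6 below the lowest scramble array. SAR1B and SEC24A, components of the COPII vesicle coat, fell by 0.60 and 0.52. Both lie next to JADE2 in the order of the members. CSNK1A1, the kinase that primes beta-catenin for degradation, fell by 0.35 (SE 0.06), and 5 of its 6 further probe sets had changes between -0.88 and -0.43, and the other, at a very low signal, had -0.08. HSPA9, the mitochondrial chaperone mortalin, fell by 0.25, LARP1, a binder of ribosomal protein mRNAs, by 0.29, FAF2, a factor of ER-associated degradation, by 0.45, and the RNA-binding protein gene HNRNPA0 by 0.44.

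A few outer members went against the stretch. CYFIP2 had 7.08, 8.15 and 7.62 in scramble and 8.85, 9.68 and 8.88 with LSD1 shRNA, a change of 1.52 (SE 0.33) with a limma adjusted p just under 0.05 and a wide spread in both groups. SPARC, a secreted matrix glycoprotein that binds collagen, had 8.65, 8.62 and 8.77 in scramble and 9.45, 9.30 and 9.32 with the shRNA, a change of 0.67 (SE 0.09, limma adjusted p = 0.017). Its second probe set, at a lower signal, had a change of 0.20. SYNPO, an actin-binding protein, rose by 0.78, FGF1, a fibroblast growth factor, by 0.72, and ADAM19, a metalloprotease, by 0.73, although the mean of ADAM19's probe sets gave 0.35 and did not pass. Of the 16 listed matrix, adhesion and receptor genes, 2 rose in limma, FGF1 and SPARC (12.5%, against 3.23% of the genes above the threshold). In that list 0 fell (1 at an unadjusted p under 0.05), and the median was 0.17. LOX, the enzyme that cross-links collagen, had a change of 0.87 and the activin antagonist FST one of 0.82 on the inner long arm, and neither passed, with scramble values for LOX of 8.47, 9.22 and 8.83.

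Elsewhere on the chromosome the LSD1 calls were scattered. ELL2, a factor of transcription elongation, had 6.99, 6.33 and 6.44 in scramble and 8.002, 7.935 and 7.803 with LSD1 shRNA, a change of 1.33 (SE 0.18, limma adjusted p = 0.014). POLR3G, a subunit of RNA polymerase III, rose by 0.71, the kinesin KIF3A by 0.60 and ENC1, an actin-associated protein, by 0.54. On the short arm NNT, the mitochondrial enzyme that makes NADPH, had 9.80, 9.58 and 9.67 in scramble and 8.74, 8.86 and 8.77 with LSD1 shRNA, a change of -0.89 (SE 0.10, limma adjusted p = 0.0062). The groups were far apart, and the other members of its list of 20 ribosomal and mitochondrial genes did not pass in limma (6 of the 20 were lower at an unadjusted p under 0.05). RETREG1, a receptor for autophagy of the endoplasmic reticulum, fell by 1.09, and its further probe set above the threshold had a change of -0.95. OTULINL fell by 0.91 (the mean of its probe sets gave -0.56 and did not pass), RAI14 by 0.63 and ICE1, a subunit of the little elongation complex, by 0.44. PIK3R1, the regulatory subunit of PI3-kinase on the inner long arm, fell by 0.48. The short arm's last 13 members, LIFR to MRPS30, had the highest LSD1 median of the chromosome, 0.084, with DAB2 at 0.58, PTGER4 at 0.68 and TTC33 at 0.42, none of which passed.

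With HDAC5 shRNA, members changed in both directions along the whole chromosome. In limma, 110 of 342 members rose (32.2%) and 106 fell (31.0%), against 30.3% and 30.7% of the genes above the threshold and 21.3% and 23.2% of all genes. The members' shares were close to that background. A joint fit of 12 arrays called 128 of them in place of 216, and 133 of 220 members were called without the _x_at and _s_at probe sets, which can match related genes. On the short arm 22 of 53 rose and 16 fell, with a median change of 0.044, and on the long arm 88 of 289 rose and 90 fell, with a median of -0.010. The outer long arm, lower with LSD1 shRNA, had a median of -0.0025 here, with 54 risen and 50 fallen. All 3 HDAC5 shRNA arrays lay below all scramble arrays for 34.8% of the members and above them for 36.8%, against 34.3% and 33.9% of the genes above the threshold. The run with the highest median was UQCRQ to TGFBI, at 0.189, with array medians of 0.125, 0.204 and 0.178, 10 members risen and 3 fallen. On the other chromosomes 7 of 373 runs (1.88%) were at or above it. Since this run was picked as the highest of 17, that share is a description and no measure of rarity. The run with the lowest median was FGF1 to RPS14, at -0.094, with 3 risen and 9 fallen.

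Cell division and DNA replication was the list that moved most with HDAC5 shRNA. Of its 14 members, 10 rose (71.4%) and 1 fell (7.14%), against 30.3% and 30.7% of the genes above the threshold. The list's median was 0.50. LMNB1, lamin B1 of the nuclear envelope, had 8.69, 8.56 and 8.73 in scramble and 10.02, 9.99 and 9.85 with HDAC5 shRNA, a change of 1.30 (SE 0.06, limma adjusted p = 1.3e-07). KIF20A, a kinesin of cytokinesis, had 9.53, 9.41 and 9.57 in scramble and 10.70, 10.79 and 10.83 with the shRNA, a change of 1.27 (SE 0.05, limma adjusted p = 6.5e-08). For both, the groups were more than 1 apart on the log2 scale. SKP2, which marks the cell cycle inhibitor p27 for degradation, rose by 1.26, TRIP13, a regulator of the mitotic checkpoint, by 1.04, and CDC25C, the phosphatase that starts mitosis, by 0.91. Cyclin B1 (CCNB1) rose by 0.68, securin (PTTG1) by 0.58, KIF2A by 0.42, CDC23 by 0.39 and CEP72 by 0.26. The member that fell was CCNG1, a cyclin induced by p53, by 0.32, while HMMR (0.11), CCNO (-0.03) and PLK2 (-0.09) did not pass. SPDL1, a kinetochore protein that was not on the list, had 9.47, 9.44 and 9.49 in scramble and 10.60, 10.59 and 10.65 with HDAC5 shRNA, a change of 1.15 (SE 0.04, limma adjusted p = 2.2e-08). With LSD1 shRNA the list's median was -0.24, and LMNB1 and CDC23 fell. Its array medians were 0.016, -0.396 and -0.168 in LSD1 shRNA 1, 2 and 3 and 0.046, -0.032 and 0.010 in scramble A, B and C, so replicate 1 did not lie below the scramble arrays. The scramble sets differed by a median of 0.97 over this list, higher in the LSD1 experiment, against 0.38 over all genes.

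**Figure D4:**
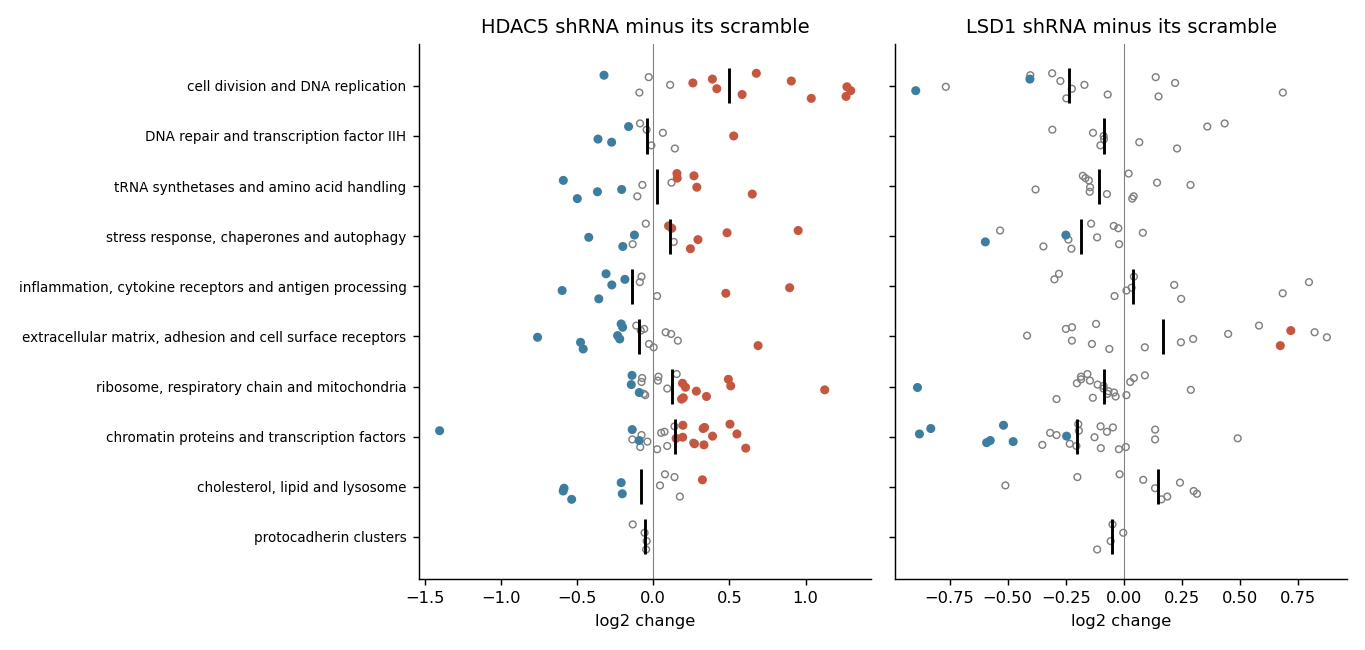
Log2 change of the members of 10 gene lists with HDAC5 shRNA (left) and LSD1 shRNA (right). Each point is a gene, red rose and blue fell in limma at an adjusted p under 0.05, open points did not pass, and the black bar is the list's median. In the cell division list 10 of 14 members are red on the left. In the chromatin list 7 of 24 are blue on the right.

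In the list of ribosome, respiratory chain and mitochondria, 9 of 20 members rose with HDAC5 shRNA (45%) and 3 fell (15%), against 30.3% and 30.7% of the genes above the threshold, and the median was 0.12. OXCT1, the first enzyme of ketone body use, had 7.56, 7.46 and 7.49 in scramble and 8.59, 8.66 and 8.63 with the shRNA, a change of 1.12 (SE 0.05, limma adjusted p = 1.3e-07). NDUFS6 of complex I rose by 0.51, the mitochondrial ribosomal protein gene MRPL22 by 0.49 and SDHA of complex II by 0.35. Of the 24 members of the chromatin list, which is mixed, 11 rose and 3 fell (median 0.14). TCOF1, which supports ribosomal RNA synthesis, rose by 0.61, JADE2 by 0.55 and APC, the inhibitor of beta-catenin, by 0.50. EGR1, an immediate-early transcription factor, went the other way, from 10.48, 10.64 and 10.58 to 9.15, 9.07 and 9.27, a change of -1.40 (SE 0.06, limma adjusted p = 6.9e-08). Of 12 stress and chaperone genes, 6 rose and 3 fell (median 0.11), with the extracellular glutathione peroxidase GPX3 up by 0.95 and the microtubule protein MAP1B down by 0.42. HSPA4 rose by 0.48 on a probe set that can match related genes, and its probe set without such matches had a change of 0.11.

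In the list of tRNA synthetases and amino acid handling, 5 of 12 members rose with HDAC5 shRNA (41.7%) and 4 fell (33.3%), near the 30.3% and 30.7% of the genes above the threshold (median 0.024). The synthetase genes TARS1 and LARS1 fell by 0.50 and 0.59, while RARS1, HARS1 and HARS2 rose by 0.29, 0.27 and 0.16. Among transporters, SLC36A1 rose by 0.65 and SLC1A3 fell by 0.37. The DNA repair list had 1 of 9 up (RAD1, a subunit of the 9-1-1 checkpoint clamp, by 0.53) and 3 down (RAD17, the loader of that clamp, by 0.36, RAD50 by 0.27 and CDK7 by 0.16). With LSD1 shRNA 0 members of either list passed in limma, and 3 of each were under an unadjusted p of 0.05.

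Of 16 matrix, adhesion and receptor genes, 7 fell with HDAC5 shRNA (43.8%, against 30.7% of the genes above the threshold) and 1 rose (median -0.097). LOX had 9.76, 9.87 and 9.79 in scramble and 8.96, 9.13 and 9.04 with the shRNA, a change of -0.76 (SE 0.06, limma adjusted p = 2.3e-06). PDGFRB, a receptor of platelet-derived growth factor, fell by 0.48 and the thrombospondin gene THBS4 by 0.46. SPARC was the exception, from 7.53, 7.51 and 7.61 to 8.24, 8.22 and 8.26, a change of 0.69 (SE 0.05, limma adjusted p = 3.6e-06), with its lower probe set at 0.05. Of 10 inflammation and cytokine receptor genes 5 fell (50%) and 2 rose (median -0.14). Of the related receptors of the leukemia inhibitory factor family, LIFR rose by 0.90 and OSMR fell by 0.60. Of 10 genes listed under cholesterol, lipid and lysosome, 5 fell (50%) and 1 rose (median -0.080). The list is mixed, so its counts do not describe lipid genes alone. PAM, an enzyme of peptide amidation, and PDE4D, a cAMP phosphodiesterase, both fell by 0.59. HMGCS1 of cholesterol synthesis rose by 0.32. Only 4 of 20 protocadherin genes with a probe set were members, and none passed in limma with either shRNA, 0 of them at an unadjusted p under 0.05.

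Apart from EGR1, the 6 largest falls with HDAC5 shRNA lay outside the lists. ANKRA2, an ankyrin-repeat protein that binds class IIa histone deacetylases, had 8.48, 8.46 and 8.54 in scramble and 6.68, 6.76 and 6.75 with HDAC5 shRNA, a change of -1.76 (SE 0.06, limma adjusted p = 1.3e-08). CYFIP2 had 8.02, 8.23 and 8.05 in scramble and 6.24, 6.41 and 6.45 with the shRNA, a change of -1.74 (SE 0.08, limma adjusted p = 1.0e-07). Both genes were lower on every shRNA array by over 1.5. ANKH, a membrane protein of pyrophosphate export, fell by 1.24, FABP6, an ileal bile acid binder, by 1.19, and the locus CTC-338M12.4 by 1.09. TMEM267, ARHGAP26, CDKL3, PRR16 and CAMLG fell by 0.75 to 0.92. The heterogeneous ribonucleoprotein gene HNRNPAB rose by 0.73 and POLR3G by 0.71.

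In 12 pairs of members of known strand, start sites on opposite strands lay within 1000 bases of each other. With HDAC5 shRNA both genes passed in 6 pairs, where 30.3% of single genes above the threshold rose and 30.7% fell. The share of all neighbouring pairs with both genes called was not computed, so these counts of pairs are descriptions. The changes had the same sign in 6 of 12, against 54.3% of all neighbouring members. BRD8 and KIF20A, whose windows are printed above and whose start sites are 482 bases apart, rose by 0.19 and 1.27. RAD1 and the ribosome assembly gene BRIX1, 207 bases apart, rose by 0.53 and 0.37. DROSHA, the microRNA-processing nuclease, rose by 0.56 while C5orf22, 208 bases away, fell by 0.16. TRIP13 rose by 1.04 and BRD9, 83 bases away, had a change of 0.14 that did not pass. With LSD1 shRNA 0 pairs had both genes past limma's threshold (2 at an unadjusted p under 0.05). Of single genes above the threshold, 3.23% rose and 2.85% fell. The signs were the same in 9 of 12 pairs, against 63.1% of all neighbouring members.

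Of the 342 members, 16 passed with both shRNAs in opposite directions. The difference between the changes passed limma's test for 154 members (45.0%), near the 42.5% of the genes above the threshold. Of 25 members that passed with both shRNAs, these 16 changed in opposite directions and 9 in the same one. The same counts over all genes above the threshold were not computed, so no background stands beside them. LMNB1 rose by 1.30 with HDAC5 shRNA and fell by 0.90 with LSD1 shRNA, from 10.87, 10.75 and 10.67 to 10.08, 9.55 and 9.97. CYFIP2 was the reverse, at -1.74 and 1.52. On the outer long arm JADE2, MACROH2A1, HNRNPA0, BRD8, CDC23, DPYSL3 and CNOT6 all rose with HDAC5 shRNA and fell with LSD1 shRNA, while SYNPO fell with HDAC5 shRNA and rose with LSD1 shRNA. BRD8's call with LSD1 shRNA carries the limit given above, and ENC1, at -0.14 with HDAC5 shRNA, was at 0.012 by the mean of its probe sets. With HDAC5 shRNA the further probe sets of MACROH2A1, above the threshold, had changes of 0.54 and -0.22, so they differ in direction. DPYSL3's further probe set, below the threshold, had -0.03 with HDAC5 shRNA. The HDAC5 call of DPYSL3 held in 6 of 12 alternative settings. Some LSD1 calls of these opposite members also hung on the setting. That of CDC23 held in 3 alternative settings and did not pass in 10. CYFIP2's held in 3 and did not pass in 9, and LMNB1's held in 7 and did not pass in 6. JADE2's held in 10 and did not pass in 3. In the same direction, SPARC and POLR3G rose with both, and F12, NR3C1, HSPA9, CSNK1A1, LARP1, RAI14 and RETREG1 fell with both. With HDAC5 shRNA the further probe sets of NR3C1 above the threshold had changes of 0.23, -0.11 and -0.26, and those of LARP1 had -0.03 and -0.0015, while those of HSPA9 had -0.30 and -0.11. The HDAC5 call of NR3C1 held in 2 of 12 alternative settings and that of F12 in 5 of 13. RETREG1's fall of 0.31 with HDAC5 shRNA became a change of 0.18 on a probe set of very low signal. Over the 342 members the changes correlated at -0.23, and over all 7996 genes at -0.21, values that describe these arrays.

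**Figure D5:**
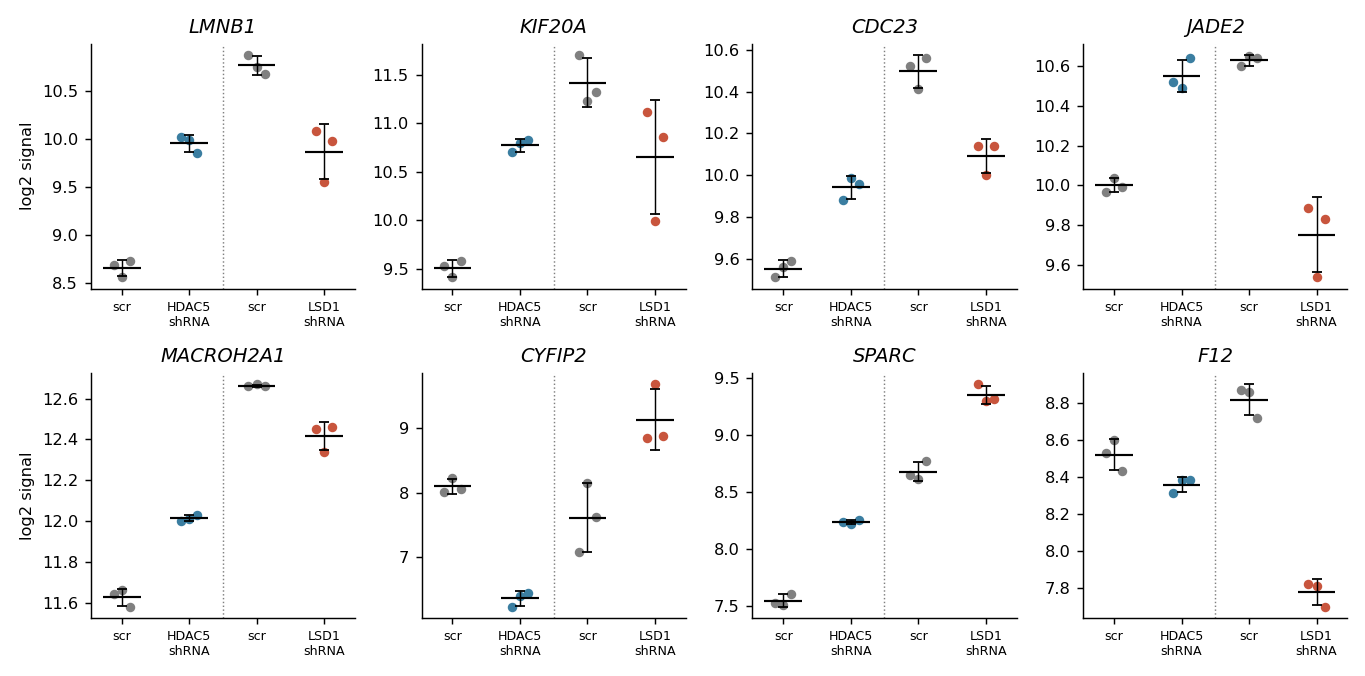
Log2 signal of 8 members on each array of the HDAC5 experiment (left of the dotted line) and the LSD1 experiment (right), with scramble (scr) in grey. Points are arrays, horizontal bars are means and whiskers are SDs (n = 3). LMNB1, CDC23, JADE2 and MACROH2A1 rise on the left and fall on the right, CYFIP2 does the reverse, SPARC rises on both sides and F12 falls on both. KIF20A rises on the left, and its fall on the right did not pass the test.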

How the data were processed

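RNA of 12 MDA-MB-231 samples was measured on Affymetrix human 3′ expression arrays. The deposited values are log2 signals per probe set, made by the authors with RMA in the affy package, per the submitters' processing notes. RMA equalises the arrays it is given, so a shift shared by most genes is removed. Tool versions, or whether RMA was run on both experiments jointly, were not found in the labels. Medians over probe sets were 6.58 to 6.64 in the HDAC5 and 7.05 to 7.15 in the LSD1 experiment.

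Of 22277 probe sets, 62 controls were left out, and of the rest 19064 had 1 symbol, 1043 several and 2108 none. The last 2 kinds were not used. Gene IDs matched RefSeq (GRCh38.p14) for 19052, and 12 kept their old symbol. Each of 11963 genes was read from its probe set of highest mean. Sets ending in _x_at or _s_at can match related genes. The untagged scramble set was assigned to HDAC5, since the other carries an LSD1 tag. The members and gene lists were chosen with earlier results of these data known.

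Each shRNA was compared with its own scramble in a fit of 6 arrays over all 11963 genes with limma 3.58.1 in R 4.3.3 (trended eBayes, tested on simulated data), at a Benjamini-Hochberg adjusted p under 0.05. Differences between shRNAs came from a fit of 12 arrays. The number of arrays limits the precision, and 3 against 3 cannot reach an exact permutation p under 0.1. Named members were the 2 targeted genes, the 12 largest rises and falls per shRNA among called members with non-overlapping arrays, up to 3 per list and shRNA, the ends of the arms, extreme runs, neighbouring pairs and members at the threshold. Others were named after their values were seen: all members called with LSD1 shRNA or with both, and list members beside the 3. Alternatives were other probe set choices, no or a stricter level filter, other scalings, a replicate block, a joint fit and leaving out arrays.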

Additional observations from a re-analysis of the deposited data

Results flagged for a closer look

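In 16 members the changes with HDAC5 and LSD1 shRNA were called in opposite directions. The difference, change with HDAC5 shRNA minus change with LSD1 shRNA in a limma fit of 12 arrays, also passed at an adjusted p under 0.05. Opposite calls on the same arrays make this likely, so it is no separate result. The same count over all genes was not computed. The difference was largest in CYFIP2 (-3.25) and LMNB1 (2.19). It was positive in OTULINL (1.44), JADE2 (1.43), DPYSL3 (1.38), CNOT6 (1.16), NNT (1.10), CDC23 (0.79), PIK3R1 (0.73), BRD8 (0.71), MACROH2A1 (0.64), ICE1 (0.61) and HNRNPA0 (0.54), and negative in SYNPO (-1.18), KIF3A (-0.82) and ENC1 (-0.69). The scramble sets differ between the experiments, with the LSD1 experiment's higher by 0.41 in the median member. In LMNB1 the scramble values given above lay much further apart than that, and the values with HDAC5 and LSD1 shRNA overlapped. CYFIP2's scramble values were on average lower in the LSD1 experiment. The part of these scramble differences in the results was not tested.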

How the results depend on the processing

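The LSD1 shift on the outer long arm kept its direction when single arrays were left out, with medians from -0.2036 (without LSD1 shRNA 3) to -0.1329 (without LSD1 shRNA 2). It was -0.09468 with no level filter, -0.2009 after centring on the other chromosomes, and -0.1461 with both scramble B and LSD1 shRNA 2 left out, a setting added after seeing the data. Over the outer long arm's 83 genes below the level threshold alone the median was 0.001926. The whole long arm was at -0.03333 with no filter. The chromosome median was -0.02749 with no filter and -0.1087 after centring. The short arm with LSD1 shRNA turned with the setting, at 0.02482 with no filter, -0.0469 after centring, and -0.05009 to 0.000805 without single arrays. LSD1 calls numbered 20 without _x_at and _s_at sets (220 genes left), 102 in the joint fit of 12 arrays, 4 without scramble B and LSD1 shRNA 2, and 1 to 39 without single arrays. The HDAC5 calls numbered 133 without _x_at and _s_at sets (220 genes left) and 128 in the joint fit, and a replicate block gave 191 against 216. Same-numbered arrays did not deviate together (correlations -0.0519, -0.208 and -0.149). HDAC5 medians were too near 0 to have a direction. For the chromosome they were 0.01364 with the mean of probe sets, 0.02785 above the 60th percentile, -0.01519 with quantile normalization, -0.01862 after centring, and -0.01386 to 0.001964 without single arrays. For the short arm they were 0.00301 without _x_at and _s_at sets, -0.01925 with no filter, 0.1146 above the 60th percentile, and 0.01627 to 0.06572 without single arrays. For the long arm they were 0.001387, 0.01087, -0.01844 and -0.02319 in the order given for the chromosome, and -0.01735 to -0.0001617 without single arrays. Reversed were RETREG1 with HDAC5 shRNA (0.1809) and BRD8 with LSD1 shRNA (0.3079) without _x_at and _s_at sets, and ENC1 with HDAC5 shRNA (0.01207) with the mean of probe sets. Of 24 named LSD1 calls 1 was left without scramble C and 2 without scramble B. The cause of these shifts was not tested.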

Other observations

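Among the 165 chromosome 5 genes below the level threshold, 4 rose (2.42%) and 0 fell with LSD1 shRNA in limma. The shares over all genes at any level were 2.93% and 2%. At an unadjusted p under 0.05, 3 fell. The 4 that rose are named here after their values were seen. SELENOP, a secreted selenium transport protein, had 3.71, 3.79 and 3.86 in scramble and 7.33, 8.41 and 6.71 with LSD1 shRNA, a change of 3.70 (SE 0.39, limma adjusted p = 0.0055), while with HDAC5 shRNA it fell by 0.41. CDH18, a neuronal cadherin of the short arm, had 4.40, 5.53 and 5.69 in scramble and 7.51, 7.78 and 7.72 with LSD1 shRNA, a change of 2.46 (SE 0.32, limma adjusted p = 0.013). CDH10, another neuronal cadherin nearby, rose by 0.95, and ST8SIA4, which adds polysialic acid to proteins, by 0.70. CDH10 and ST8SIA4 were below the threshold on all 12 arrays, and SELENOP and CDH18 on the 9 arrays without LSD1 shRNA. With HDAC5 shRNA 5 of these 165 genes rose (3.03%) and 11 fell (6.67%), against 21.3% and 23.2% of all genes at any level. The shares over all genes below the threshold were not computed, so the counts are descriptions.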
